A study of Rattus norvegicus with 15 samples.

Results

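Macrophages are phagocytic cells that live in muscle between the fibres and are joined after injury by cells that develop from blood monocytes. They clear debris, present antigen and release factors that act on fibroblasts and on the muscle's own precursor cells. Their survival depends on signals through the receptor encoded by Csf1r, and different states of the cell are told apart by surface receptors, lysosomal proteins and enzymes. A panel of 10 genes that mark these cells was followed here in rat multifidus, a muscle beside the spine: Cd68, Csf1r, Lyz2, Cd163, Mrc1, Adgre1, Itgam, Aif1, Trem2 and Gpnmb. Members were chosen by symbol, all 10 were found among the 37991 genes of the deposited table, and all 10 passed the filter on low counts that left 17201 genes for testing.

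Total RNA was sequenced in 15 libraries of wild type male Sprague Dawley rats aged 12 weeks. The Control group had no injury (n = 2), and the Surgery group had no treatment after surgery (n = 2). The pMT group was operated and given mitochondria from human plasma (pMT), 25 µg in 100 µL per site and 50 µg in all, in the left paraspinal muscle on day 14, with tissue taken on day 28 (n = 4). The VitD group (n = 3) was operated and given cholecalciferol, 150 µg per site and 300 µg in all, and the pMT/VitD group (n = 4) was operated and given both agents, on days that the sources used here do not state. Per the study's methods and supplement, surgery removed laminae, and a left lumbar spinal nerve was tied and cut. The muscle was thus injured and its nerve supply was disturbed as well. No buffer injection is described for the Surgery group, so in a comparison with it the injection and its content cannot be told apart. Whether the libraries of a group came from separate rats is not stated in the labels, and the p-values measure only the spread between these libraries.

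Libraries held 52342134 to 73557878 counts, and each member had between 76 counts (Itgam) and 20532 counts (Lyz2) in a library. Levels are counts scaled for depth and composition (CPM, with edgeR's TMM factors), and a gene was called when its adjusted p was under 0.05 in edgeR's quasi-likelihood test over all 15 libraries, with Benjamini-Hochberg adjustment over the 17201 genes. Muscle fibre genes such as Acta1, Ckm and Tnnt3 summed to between 92060 and 131100 in TPM, the authors' length-scaled transcript level, as in skeletal muscle. The 2 surgery libraries lay close together, with a chi-square of 5.08 per gene where counting alone would give about 1, against 26.0 for the controls. For the 10 members they differed by no more than counting noise, with p between 0.175 and 0.778 in a chi-square test on the counts of these 2 libraries. Replicate 4 of the pMT group and replicate 4 of the pMT/VitD group stood apart from the other libraries of their groups, and each lay nearer to the other group in the relation of its levels to gene length (rank correlations stand with the members they touch). The deviations of these 2 libraries from their group means had a correlation of -0.499. Whether their labels were exchanged was not tested and cannot be told from the labels, so both were kept as labelled, and the comparison of pMT/VitD with pMT is given without them as well.

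The markers come from different parts of the macrophage programme, and most carry the same short element in front of the gene. PU.1, the transcription factor of the ETS family that macrophages depend on, binds elements built on the letters GAGGAA. RefSeq gave promoters for 9 of the 10 members (assembly GRCr8, the 250 bases before the annotated start, both strands searched). The letters GAGGAA were found in 8 of these 9, against 23.3% of 33469 promoters of the same length, while Cd163 had no match. The longer form GAGGAAGT was found in 0 of the 9 (2.04% of all promoters). CACGTG, a core of elements bound by the lysosomal regulators TFEB and MITF, was found in 0 of the 9 (5.59%). Other letters that these regulators may bind were not searched, so the absence of CACGTG does not show that their elements are absent. These searches were made with the expression results known, and a match is a description of the letters only. The promoters of the member with the largest change (Gpnmb), of its lipid-sensing partner in the panel (Trem2), of the pan-macrophage marker Cd68 and of Cd163 are shown, 5′ to 3′ on the strand of the gene, with capitals at GAGGAA or its reverse complement.
Gpnmb, chr4:79340878-79341127, plus strand: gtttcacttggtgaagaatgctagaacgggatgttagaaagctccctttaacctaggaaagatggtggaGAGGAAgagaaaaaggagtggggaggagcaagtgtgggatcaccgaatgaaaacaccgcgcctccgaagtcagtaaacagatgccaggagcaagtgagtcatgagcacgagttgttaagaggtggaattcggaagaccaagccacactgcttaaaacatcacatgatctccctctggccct
Trem2, chr9:20151780-20152029, minus strand: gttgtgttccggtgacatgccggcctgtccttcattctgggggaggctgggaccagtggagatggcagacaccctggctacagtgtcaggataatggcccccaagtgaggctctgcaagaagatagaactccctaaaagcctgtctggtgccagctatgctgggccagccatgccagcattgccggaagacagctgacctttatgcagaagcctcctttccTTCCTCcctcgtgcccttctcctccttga
Cd68, chr10:54882442-54882691, minus strand: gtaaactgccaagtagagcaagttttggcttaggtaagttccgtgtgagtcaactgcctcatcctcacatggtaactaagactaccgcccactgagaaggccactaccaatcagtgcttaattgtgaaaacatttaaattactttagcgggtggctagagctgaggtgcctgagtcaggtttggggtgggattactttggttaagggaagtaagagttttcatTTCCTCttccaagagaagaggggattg
Cd163, chr4:158770524-158770773, plus strand: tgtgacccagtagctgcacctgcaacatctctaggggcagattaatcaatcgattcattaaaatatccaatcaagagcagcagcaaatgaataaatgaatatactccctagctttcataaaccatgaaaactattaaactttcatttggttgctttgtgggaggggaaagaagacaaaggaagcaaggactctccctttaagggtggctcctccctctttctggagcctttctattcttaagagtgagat
The element lay 27 bases before the start in Cd68 and 29 bases before it in Trem2, both on the opposite strand, and 181 bases before it in Gpnmb.

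Per transcript length, Lyz2 was the most abundant member, at 128 TPM on average over the 15 libraries. Aif1 (19.2 TPM), Csf1r (17.1 TPM) and Cd68 (13.5 TPM) followed, and Itgam was lowest at 1.35 TPM. The summed TPM of the panel was 134 to 136 in the control libraries, 337 to 344 in the surgery libraries and 278 to 496 in the VitD libraries. It was 117 to 193 in the pMT libraries and 108 to 156 in the pMT/VitD libraries. The libraries of operated muscle without pMT therefore lay above every other library in summed level. Lyz2 made up most of this sum, with a mean of 77.8 TPM in the controls and 205 TPM in the surgery libraries. In bulk muscle, a change in the number of macrophages and a change in RNA per macrophage cannot be told apart.

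Every member differed among the 5 groups (10 of 10 called, adjusted p from 0.000362 for Trem2 to 0.0284 for Csf1r in the quasi-likelihood test), where 11.8% of all genes were called. The order of the group means was alike for the members. VitD was highest for 9 members and Surgery for Csf1r, and these 2 groups were followed by the Control, pMT and pMT/VitD groups in varying order. No member differed by the test between VitD and Surgery, nor among Control, pMT and pMT/VitD.

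**Figure D1:**
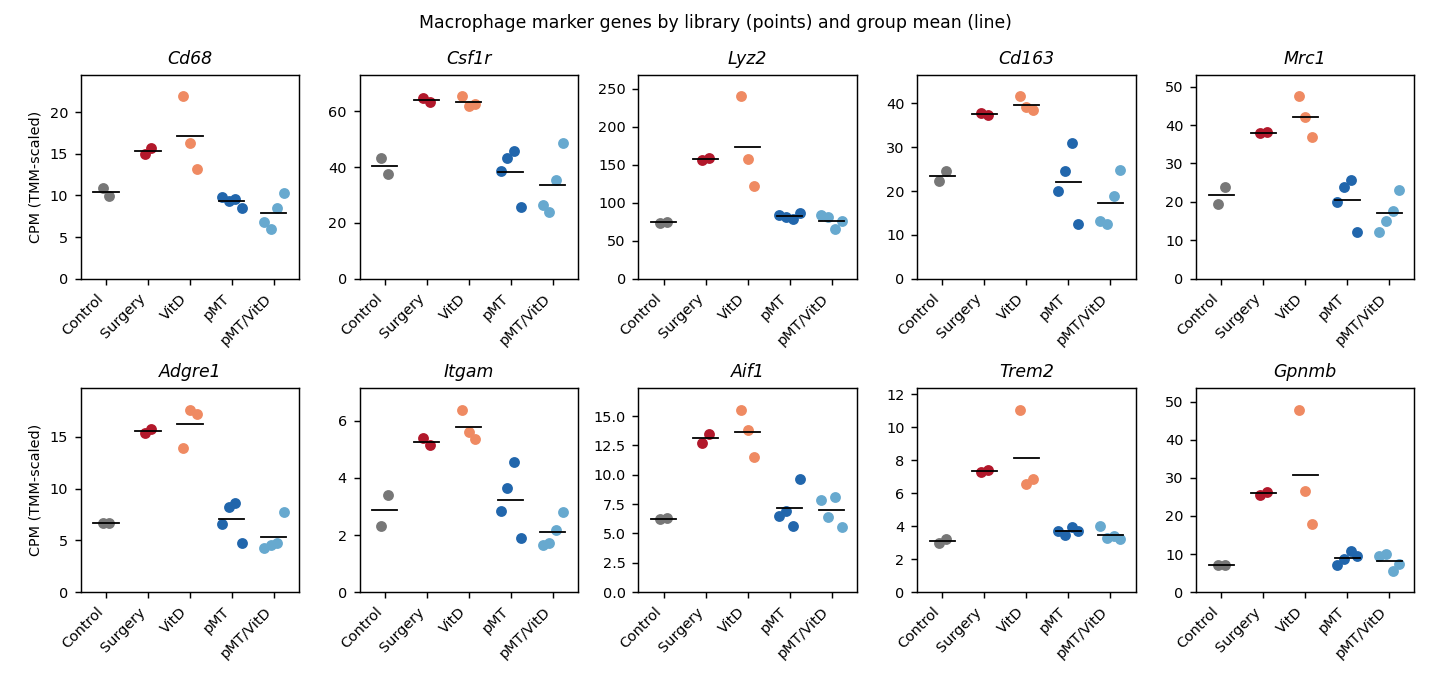
CPM of the 10 marker genes (vertical axes, starting at 0) in every library, by group along the horizontal axis, with points for libraries and black lines for group means. Surgery and VitD libraries sit above all pMT and pMT/VitD libraries in each panel.

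Gpnmb and Trem2 belong to the state of macrophages that handle lipid and dead cells. Gpnmb (gene 113955) encodes a membrane glycoprotein of lysosomes. Its level was 7.21 and 7.13 CPM in the controls, 25.5 and 26.4 CPM in the surgery libraries and 47.9, 26.5 and 17.9 CPM in the VitD libraries. With pMT it was 7.04, 8.73, 10.7 and 9.39 CPM, and with pMT/VitD 9.55, 9.92, 5.68 and 7.36 CPM. All 5 operated libraries without pMT were higher than the 10 others, and VitD replicate 1 was the highest of all. Surgery raised Gpnmb 3.62-fold over control (log2 fold change 1.86 ± 0.361 SE, adjusted p = 0.0267, quasi-likelihood test), the largest change of the panel. It fell by 1.53 on the log2 scale from Surgery to pMT (SE 0.291, adjusted p = 0.0174, quasi-likelihood test) and by 1.67 from Surgery to pMT/VitD (adjusted p = 0.00492, same test).

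Trem2 (gene 301227) encodes the receptor through which macrophages sense lipids and apoptotic cells. It measured 2.95 and 3.20 CPM in the controls, 7.29 and 7.43 CPM in the surgery libraries and 11.1, 6.53 and 6.85 CPM in the VitD libraries. The pMT libraries held 3.72, 3.47, 3.94 and 3.70 CPM and the pMT/VitD libraries 3.998, 3.30, 3.40 and 3.23 CPM. All 4 pMT libraries were above both controls, as for 7.41% of all genes, but the difference (log2 fold change 0.27, 95% confidence interval -0.138 to 0.678) did not pass the test. Surgery raised Trem2 2.39-fold (log2 fold change 1.26 ± 0.217 SE, adjusted p = 0.0141, quasi-likelihood test), and pMT libraries were lower than surgery libraries by 0.99 on that scale (log2 fold change -0.99 ± 0.179 SE, adjusted p = 0.0131). Trem2 had the lowest adjusted p of the panel in both comparisons.

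Lyz2, Cd68 and Aif1 encode proteins found inside macrophages. Lyz2 (gene 25211) encodes lysozyme, which cuts bacterial cell walls. Its level was 73.4 and 75.5 CPM in the controls, 157 and 159 CPM after surgery and 240, 158 and 122 CPM with VitD. It was 79.1 to 86.6 CPM in the 4 pMT libraries and 65.2 to 84.0 CPM in the 4 pMT/VitD libraries. Every library with pMT was thus below the 5 operated libraries without it, as for 7.15% of all genes. The rise with surgery was 2.12-fold (log2 fold change 1.09, adjusted p = 0.0333, quasi-likelihood test), and the fall from Surgery to pMT was 1.91-fold (log2 fold change -0.93, adjusted p = 0.0239). Aif1 (gene 29427) encodes IBA1, a calcium-binding protein of the macrophage cytoskeleton. It was 6.20 and 6.30 CPM in the controls, 12.7 and 13.5 CPM after surgery, 15.5, 13.9 and 11.5 CPM with VitD, 5.61 to 9.62 CPM with pMT and 5.57 to 8.06 CPM with pMT/VitD. Aif1 rose 2.09-fold with surgery (log2 fold change 1.07, adjusted p = 0.0379, quasi-likelihood test) and was lower with pMT by 0.87 (log2 fold change -0.87, adjusted p = 0.0346). Cd68 (gene 287435), a lysosomal membrane protein used to stain macrophages in tissue sections, had 9.95 and 10.9 CPM in the controls, 14.96 and 15.75 CPM after surgery and 13.2 to 21.9 CPM with VitD. Its log2 fold changes of 0.56 for Surgery against Control (adjusted p = 0.237) and -0.72 for pMT against Surgery (adjusted p = 0.0837) did not pass the quasi-likelihood test. The groups did not overlap, which held for 31.7% of all genes in the first comparison (higher) and 17.2% in the second (lower).

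The surface receptors split by the test. Adgre1 (gene 316137), which encodes the F4/80 antigen, measured 6.67 and 6.68 CPM in the controls and 15.3 and 15.8 CPM in the surgery libraries. VitD libraries held 13.9, 17.6 and 17.2 CPM, pMT libraries 6.57, 8.23, 8.59 and 4.72 CPM, and pMT/VitD libraries 4.24, 4.56, 4.75 and 7.75 CPM. It rose 2.33-fold with surgery (log2 fold change 1.22 ± 0.283 SE, adjusted p = 0.0472, quasi-likelihood test) and was lower with pMT (log2 fold change -1.15 ± 0.234 SE, adjusted p = 0.0241). Csf1r (gene 307403), the receptor for the growth factors CSF1 and IL-34, was 43.3 and 37.5 CPM in the controls, 64.6 and 63.2 CPM after surgery and 61.7 to 65.3 CPM with VitD. It was 38.7, 43.3, 45.8 and 25.9 CPM with pMT and 26.4, 23.8, 35.3 and 48.5 CPM with pMT/VitD. Its log2 fold changes of 0.66 for Surgery against Control (adjusted p = 0.255) and -0.73 for pMT against Surgery (adjusted p = 0.155) missed the threshold of the quasi-likelihood test. The groups did not overlap, as for 31.7% of all genes in the first comparison (higher) and 17.2% in the second (lower).

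Cd163 (gene 312701), the scavenger receptor for haemoglobin bound to haptoglobin, and Mrc1 (gene 291327), the mannose receptor CD206, mark resident and repair-associated macrophages. Cd163 was 22.4 and 24.6 CPM in the controls, 37.9 and 37.4 CPM after surgery, 38.4 to 41.6 CPM with VitD, 12.5 to 31.0 CPM with pMT and 12.6 to 24.9 CPM with pMT/VitD. Mrc1 was 19.5 and 23.9 CPM in the controls, 37.8 and 38.1 CPM after surgery, 36.8 to 47.4 CPM with VitD, 12.2 to 25.8 CPM with pMT and 12.2 to 23.1 CPM with pMT/VitD. Itgam (gene 25021), the CD11b integrin chain shared with monocytes and neutrophils, was 2.30 and 3.42 CPM in the controls, 5.40 and 5.14 CPM after surgery and 5.36 to 6.39 CPM with VitD. These 3 genes lay above both controls in both surgery libraries, as did 31.7% of all genes. Their log2 fold changes were 0.68, 0.81 and 0.88, and the adjusted p-values of 0.327, 0.185 and 0.188 did not pass the quasi-likelihood test. With VitD, Mrc1 passed it (log2 fold change 0.96, adjusted p = 0.0496).

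Against Control, Surgery gave 5 members called higher and 0 lower, Gpnmb, Trem2, Adgre1, Lyz2 and Aif1, where 1.25% of all genes were called higher. The median log2 fold change of the 10 was 0.97, against -0.01 for all genes tested. All 10 members lay above both controls in both surgery libraries, which was so for 31.7% of all genes. The count rests on few libraries. It was 0 without either control or either surgery library and 2 without pMT replicate 1, pMT replicate 2 or VitD replicate 2. It was also 0 when the 2 surgery libraries were summed to 1, and 10 with limma voom or with only these 2 groups in the fit. These last settings called 4938 of 17201 genes (28.7%) and 5289 of 16316 genes (32.4%) in either direction, against 266 (1.55%) here.

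VitD against Control gave 6 members higher, the same 5 and Mrc1, with 0 lower (5.48% of all genes were called higher). Log2 fold changes ranged from 0.65 for Csf1r to 2.10 for Gpnmb, with a median of 1.07, all 10 lay above both controls in every VitD library (25% of all genes), and Gpnmb was 4.29-fold higher (adjusted p = 0.00494, quasi-likelihood test). This comparison shares its controls with the previous one, and the count was 0 without either control and 3 with only these 2 groups in the fit (0.579% of all genes in that fit). Against Surgery, VitD gave 0 members called (0 of all genes), with log2 fold changes from -0.02 to 0.25 and 0 members at an unadjusted p under 0.05. The confidence intervals of this difference reached from -0.432 to 0.925 for Gpnmb and from -0.573 to 0.539 for Csf1r, and differences of those sizes lie within them. VitD replicate 1 was highest of its group for 9 members and lowest for Adgre1.

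**Figure D2:**
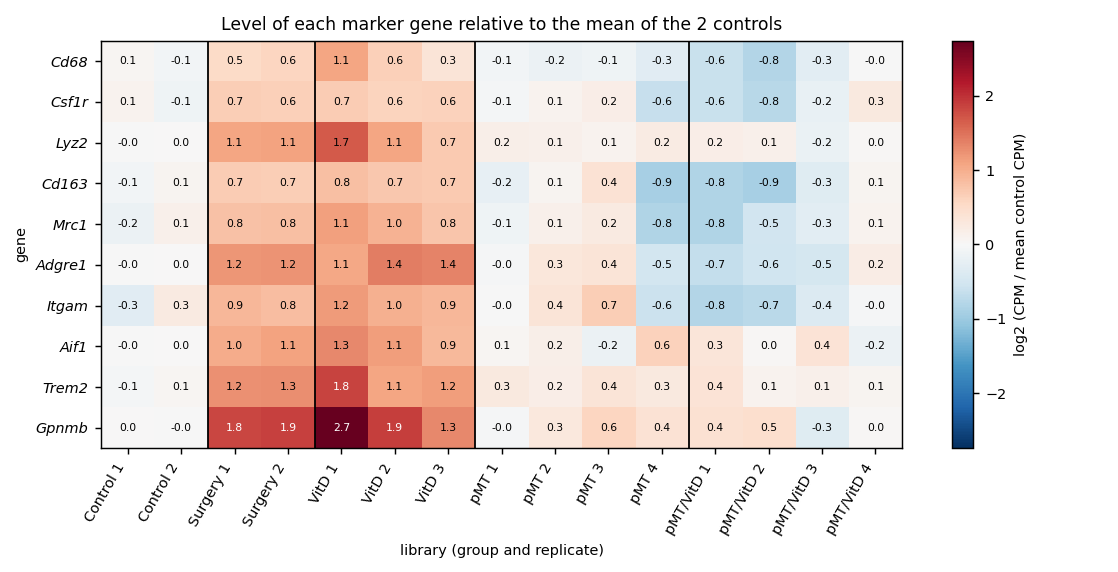
Log2 ratio of each member's CPM (rows) to the mean of the 2 controls in every library (columns), with red for higher and blue for lower levels. Values reach 2.74 for Gpnmb in VitD replicate 1, and the lowest value is -0.91 for Cd163.

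With pMT, the panel was lower than in Surgery. Members called lower numbered 5 (Gpnmb, Adgre1, Trem2, Lyz2 and Aif1) and higher 0, where 1.55% of all genes were called lower. The median log2 fold change was -0.88, against 0.02 for all genes. All 10 members were below both surgery libraries in all 4 pMT libraries (17.2% of all genes). The count was 0 without either surgery library or with these summed to 1, 1 without pMT replicate 1, 2 without pMT replicate 2, 3 without pMT replicate 3, and 8 with edgeR's exactTest and 10 with limma voom. Of all genes, exactTest called 1180 (7.1%) and voom 6480 (37.7%) in either direction, against 334 (1.94%) here.

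For pMT/VitD against Surgery, 10 members were called lower (5.03% of all genes), with log2 fold changes from -0.91 for Aif1 to -1.67 for Gpnmb and adjusted p from 0.00249 to 0.0329 in the quasi-likelihood test. Adgre1 showed the lowest of these p-values, at a 2.92-fold lower level. All 10 were below both surgery libraries in the 4 pMT/VitD libraries (20.2% of all genes). The count was 1 without either surgery library or with these summed to 1, when Adgre1 was the member still called with the summed library. Both comparisons share the surgery libraries.

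The 8 operated libraries with pMT were also set against the 5 without it, as the mean of pMT and pMT/VitD against the mean of Surgery and VitD. This grouping was chosen with earlier results of these data known and reuses the libraries of the comparisons above. In this comparison 10 members were called lower, where 13.3% of all genes were called lower. All 10 were lower in every library with pMT than in any of the 5 others, which held for 7.15% of all genes. Log2 fold changes were -1.73 ± 0.197 for Gpnmb, -1.38 ± 0.158 for Adgre1, -1.11 ± 0.121 for Trem2 and -1.06 ± 0.127 for Lyz2 (SE), with adjusted p-values of 6.33e-05, 6.42e-05, 4.52e-05 and 9.5e-05 in the quasi-likelihood test. Csf1r changed least, by -0.82 (adjusted p = 0.00263, same test). The count stayed at 10 when any 1 of the 15 libraries was left out and when the surgery libraries were summed to 1. Whether the effect of pMT differed with VitD was tested as an interaction, which gave 0 members and 0 of all genes (888 of all genes at an unadjusted p under 0.05), and the differences between the effects ran from -0.77 for Itgam to -0.09 for Aif1.

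Against Control, pMT and pMT/VitD gave 0 members called, and 0 of all genes (528 and 496 at an unadjusted p under 0.05). For pMT, log2 fold changes ran from -0.16 for Cd68 to 0.32 for Gpnmb, and 0 members had an unadjusted p under 0.05. Lyz2, like Trem2, was above both controls in all 4 pMT libraries (79.1 to 86.6 CPM against 73.4 and 75.5 CPM), and Cd68 was below them (8.45 to 9.87 CPM against 9.95 and 10.9 CPM), as were 7.77% of all genes. For pMT/VitD they ran from -0.45 for Itgam to 0.18 for Gpnmb, also with 0 at an unadjusted p under 0.05. DESeq2 also called 0 members in both, while limma voom called 5 lower in pMT/VitD (Cd68, Csf1r, Cd163, Mrc1 and Adgre1; 10.8% of all genes in either direction) and 0 in pMT. The intervals remained wide, from -0.342 to 0.99 for Gpnmb with pMT and from -1.05 to 0.183 for Cd163 with pMT/VitD, so that a return to the level of uninjured muscle is not shown by the absence of a call.

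**Figure D3:**
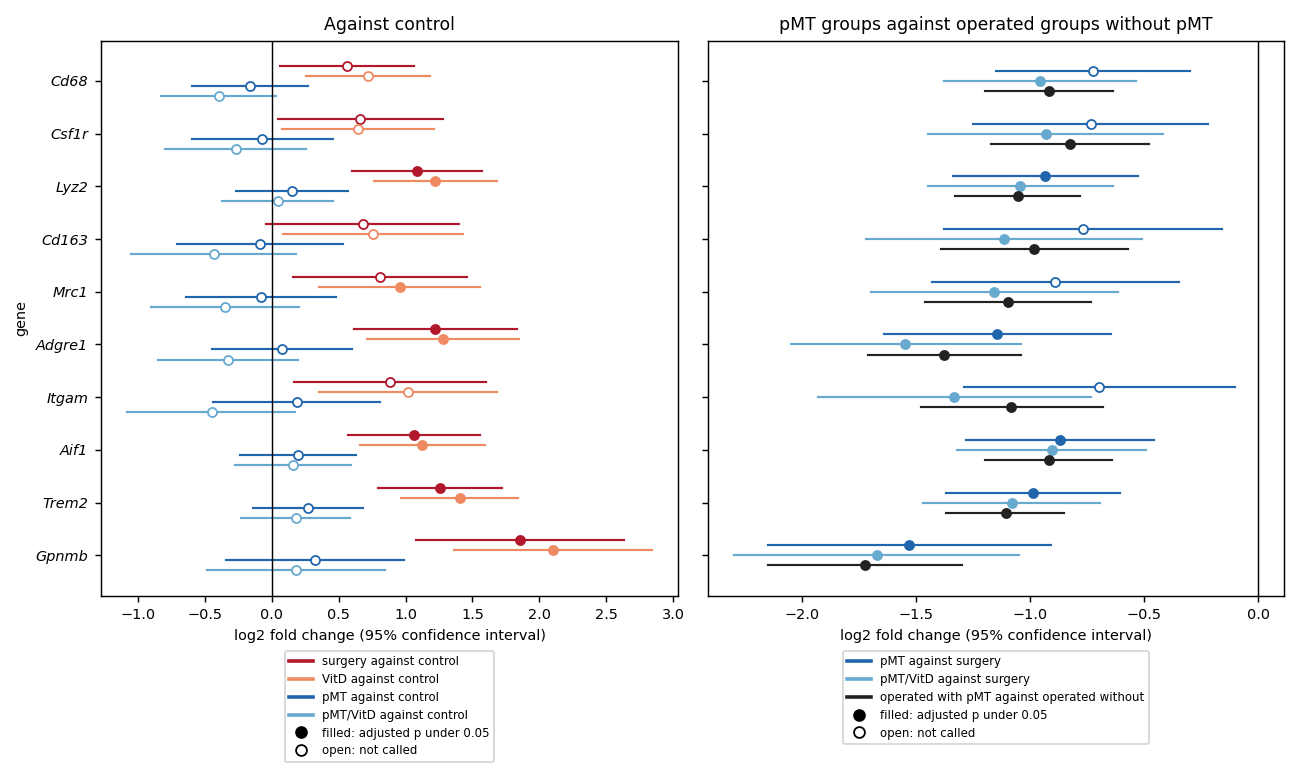
Log2 fold changes of the 10 members with 95% confidence intervals (horizontal axis), against Control on the left and for groups with pMT against operated groups without pMT on the right, with filled points for members called. The comparison of 8 with 5 libraries has all 10 points filled, from -1.73 for Gpnmb to -0.82 for Csf1r.

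Members did not move as a single block within groups. Across the 15 libraries, the 45 pairs of members had Pearson's r of log2 CPM between 0.557 and 0.985 (median 0.845), which includes the differences between groups. Once group means were taken out, r ran from -0.824 for Adgre1 with Aif1 to 0.953, with a median of 0.234. It was 0.802 to 0.953 among Csf1r, Cd163, Mrc1, Adgre1 and Itgam, and 0.725 to 0.891 among Lyz2, Trem2 and Gpnmb. Between these sets, which were chosen after the values were seen, r was -0.38 to 0.086. These values are descriptive only, since all members measured in a library share that library's depth and composition, which differed among libraries. In pMT replicate 4, Csf1r, Cd163, Mrc1, Adgre1, Itgam and Cd68 were the lowest of the pMT group and Aif1 the highest, and in pMT/VitD replicate 4 these 6 were the highest and Aif1 the lowest of its group. Cd68 was 8.45 CPM in pMT replicate 4 and 9.33 to 9.87 CPM in the other pMT libraries, and 10.3 CPM in pMT/VitD replicate 4 and 6.01 to 8.52 CPM in the others of that group.

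Gene length moved with part of this split. Relative to the median gene, Cd163 (2.20), Mrc1 (2.12), Itgam (1.59), Csf1r (1.53) and Adgre1 (1.31) were long and Aif1 (0.269) was short, while Cd68 (0.486) was short and moved with the long genes. The rank correlation of each library's deviation with gene length was -0.32 in pMT replicate 4 and 0.15 in pMT/VitD replicate 4, against 0.02 to 0.45 and -0.39 to -0.17 in the other libraries of those groups. With the length trend removed, Aif1 in pMT replicate 4 was 7.61 CPM and lay within the 6.65 to 8.13 CPM of the other pMT libraries. Cd163 in that library was 13.7 CPM and stayed below the others, of which the highest was 27.2 CPM. Cd68 in that library was 7.54 CPM, below the 9.98 to 11 CPM of the rest of its group, and 10.9 CPM in pMT/VitD replicate 4 against 5.23 to 8.02 CPM in its group, also with the trend removed.

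pMT/VitD against pMT gave 0 members called (0 of all genes, 1737 at an unadjusted p under 0.05), with all 10 log2 fold changes negative, from -0.64 for Itgam (unadjusted p = 0.0195, adjusted p = 0.452, quasi-likelihood test) to -0.04 for Aif1. Without both libraries numbered 4, an alternative planned for these libraries, 5 members were lower with VitD added: Itgam (-0.99), Adgre1 (-0.78), Cd163 (-0.76), Mrc1 (-0.63) and Csf1r (-0.58), with adjusted p from 0.00289 to 0.0114 in the quasi-likelihood test. In that setting 3136 of 17182 genes were called in either direction (18.3%). With the length trend removed as well, an alternative added after the data were seen, 5 were again lower, with Cd68 (-0.69) in place of Mrc1, and 728 of all genes were called (4.24%). Aif1 changed sign between these settings, from 0.24 to -0.29, and was not called in either. For each member called in these settings, the pMT library numbered 4 was the lowest of its group. The pMT/VitD library numbered 4 was the highest of its group. Leaving out libraries that lay nearer to the other group widens the difference by selection, so these p-values cannot show an effect of VitD.

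The balance of Gpnmb and Csf1r varied among libraries. The ratio of Gpnmb to Csf1r TPM, chosen after the values were seen and given with no test, was 0.274 and 0.313 in the controls, 0.648 and 0.687 after surgery and 1.21, 0.705 and 0.470 with VitD. With pMT it was 0.299, 0.331, 0.385 and 0.597, and with pMT/VitD 0.595, 0.684, 0.264 and 0.249. Of these, pMT replicate 4 and pMT/VitD replicates 1 and 2 lay within the range of the operated groups without pMT. For the pMT group this rests on a library that stood apart from its group. By contrast, the ratio of Cd163 to Csf1r stayed between 0.350 and 0.475 in all 15 libraries.

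**Figure D4:**
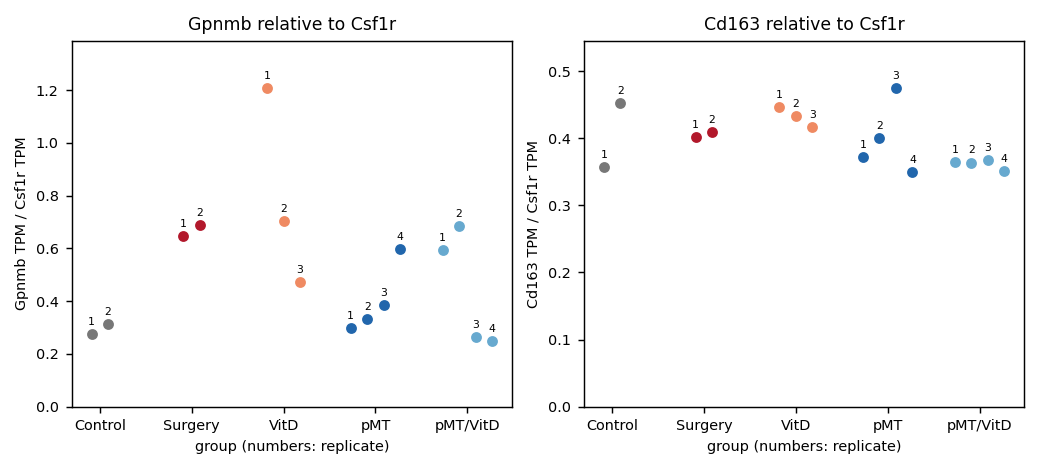
Ratio of Gpnmb to Csf1r TPM (left) and of Cd163 to Csf1r TPM (right) in every library, by group, with replicate numbers at the points and axes starting at 0. The left ratio spans 0.249 to 1.21 and the right ratio 0.350 to 0.475.

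The genes whose pattern over the 15 libraries was most like that of each member were sought among 11389 genes whose mean log2 CPM was 1 or more. The most alike were Actc1 for Gpnmb (r = 0.991), Pdia6 for Lyz2 (0.988), Antxr1 for Csf1r (0.986), Adamtsl2 for Cd163 (0.986) and Cyb561 for Adgre1 (0.986). Cilp for Trem2 (0.985), Txndc5 for Cd68 (0.984), Eda2r for Mrc1 (0.984), Man2a1 for Itgam (0.978) and Dbp for Aif1 (0.975) completed the set. Actc1 encodes the actin of heart and developing muscle, Pdia6 and Txndc5 encode folding enzymes of the endoplasmic reticulum, and Cilp encodes a matrix protein.

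Related gene lists were followed in the same comparison of 8 with 5 libraries, in which all genes tested had a median log2 fold change of 0.01. Of the genes of resident macrophages, 8 of 11 tested were called lower and 0 higher, with a median of -0.97. These included Lyve1, a hyaluronan receptor (-1.25, adjusted p = 3.08e-05, quasi-likelihood test), and Siglec1, a sialic acid receptor (-1.53, adjusted p = 0.000189, same test). Of the phagocytic receptors and their adaptors, 7 of 16 were lower and 0 higher, among them the inhibitory Fc receptor Fcgr2b (-1.89) and the adaptors Tyrobp (-0.72) and Fcer1g (-0.70). Of the lipid-associated and lysosomal genes, 7 of 17 were called lower and 0 higher, with a median of -0.25. The fitted change was lower for 11 of these genes and higher for 6. Apoe, which carries lipid out of macrophages and is made by other cells as well, changed most among them (-1.83, adjusted p = 2.28e-07, quasi-likelihood test). Spp1, named after its values were seen, went the other way without a call (0.65, adjusted p = 0.349, same test). Its log2 fold changes against Control were 1.99 with pMT and 2.62 with pMT/VitD, also not called.

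Apoe was 104 to 122 CPM in the controls, 435.5 to 462 CPM after surgery and 353 to 576 CPM with VitD, and 121 to 137 CPM with pMT and 112 to 125 CPM with pMT/VitD. Its rise with surgery (log2 fold change 1.99, adjusted p = 0.000277, quasi-likelihood test) was larger than the fitted rise of any member. Of the growth factors and transcription factors of the lineage, 4 of 12 were lower and 0 higher in the comparison of 8 with 5 libraries, with a median of -0.30. The 4 were the receptor chain Csf2ra (-0.78), the transcription factors Irf8 (-0.79) and Runx1 (-1.43), and Il34 (-0.37), which encodes the other ligand of CSF1R. Csf1 (-0.08), which encodes the first ligand, and Spi1 (-0.31), which encodes PU.1, did not pass the quasi-likelihood test (adjusted p = 0.791 and 0.232). Il34, Csf1 and Spi1 were named after their values were seen. Runx1 is also in the list of genes that muscle induces on loss of its nerve, and is counted in both lists.

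The most abundant genes of these lists did not all take part. Cebpb (0.34), Maf (-0.15) and Nr1h3 (0.18), transcription factors that other cells of muscle also express, did not pass the test, nor did the receptor Axl (-0.15). Of the resident macrophage list, Clec10a (-0.94), a lectin receptor, was lower, while Gas6 (-0.21) and Igf1 (-0.16), both secreted factors, did not pass. The lysosomal genes Ctsd (0.15) and Cd63 (-0.33) did not pass either, nor did Lipa (-0.12) of the same list. Ctsb (-0.83), Ctsk (-0.82), Ctss (-0.87) and Ctsz (-0.42) of that list were lower, as were the lysosomal members Cd68, Gpnmb and Lyz2. Lipa, Ctsb, Ctsk, Ctss and Ctsz were named after their values were seen. Among monocyte genes, Fn1 (-1.05), which encodes fibronectin and is made by fibroblasts too, and Plac8 (-0.84) were lower and Nr4a1 (0.01) did not pass.

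Genes of other cells were followed in the same comparison, where 13.3% of all genes were called lower. All 7 pan-leukocyte genes tested were lower, among them Laptm5 (-0.83), as were 4 of 8 T cell genes, among them Cd4 (-1.06), which rat macrophages also express, and Lck (-1.21). The B cell list had 1 of 5 lower, the dendritic cell list 1 of 7, the monocyte list 4 of 7, the polarisation list 2 of 9, the lymphatic endothelium list 2 of 6 and the osteoclast list 1 of 4 (Acp5). Neutrophil genes gave 1 lower and 1 higher of 8. In the B cell, dendritic cell, polarisation, osteoclast and neutrophil lists, the 1 or 2 genes called lower were within 1 gene of that share. Fibroblast genes gave 4 of 7 lower, including Col1a1 and Col3a1, and 9 of 10 genes that muscle induces on loss of its nerve were lower, with Myog at -1.09. Of the genes of other cells that can express Gpnmb, the melanocyte genes Tyr and Tyrp1 and the osteoclast gene Dcstamp were at 0 counts in all libraries. These 3 were named after their values were seen. Other genes of these lists were detected. Acp5 was lower (-1.33), while Nfatc1 (0.06), Calcr (-0.42), Mmp9 (-0.80), Pmel (-0.63) and Sox10 (-0.31) did not pass the test. The melanocyte list summed to 0.166 to 0.256 TPM in the controls and 0.763 to 0.841 TPM after surgery. It was 0.595 to 0.749 TPM with VitD, 0.325 to 0.547 TPM with pMT and 0.325 to 0.469 TPM with pMT/VitD. Adipocyte genes gave 0 of 6 called and muscle fibre genes 1 of 10 higher (Myh4). Summed over the pan-leukocyte list, the level was 63.2 to 67.3 TPM in the controls, 113 to 114 TPM after surgery, 99.3 to 159 TPM with VitD, 62.8 to 81.1 TPM with pMT and 44.8 to 73.2 TPM with pMT/VitD. The list of nerve loss genes summed to 46.1 to 49.7 TPM in the controls, 217 to 219 TPM after surgery, 137 to 455 TPM with VitD, 52.0 to 76.9 TPM with pMT and 43.5 to 57.1 TPM with pMT/VitD. The neutrophil list was low throughout, at 2.46 to 21.5 TPM, with Ltf at 0 counts in all libraries. The part of these other cells in the levels of the 10 members was not tested.

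**Figure D5:**
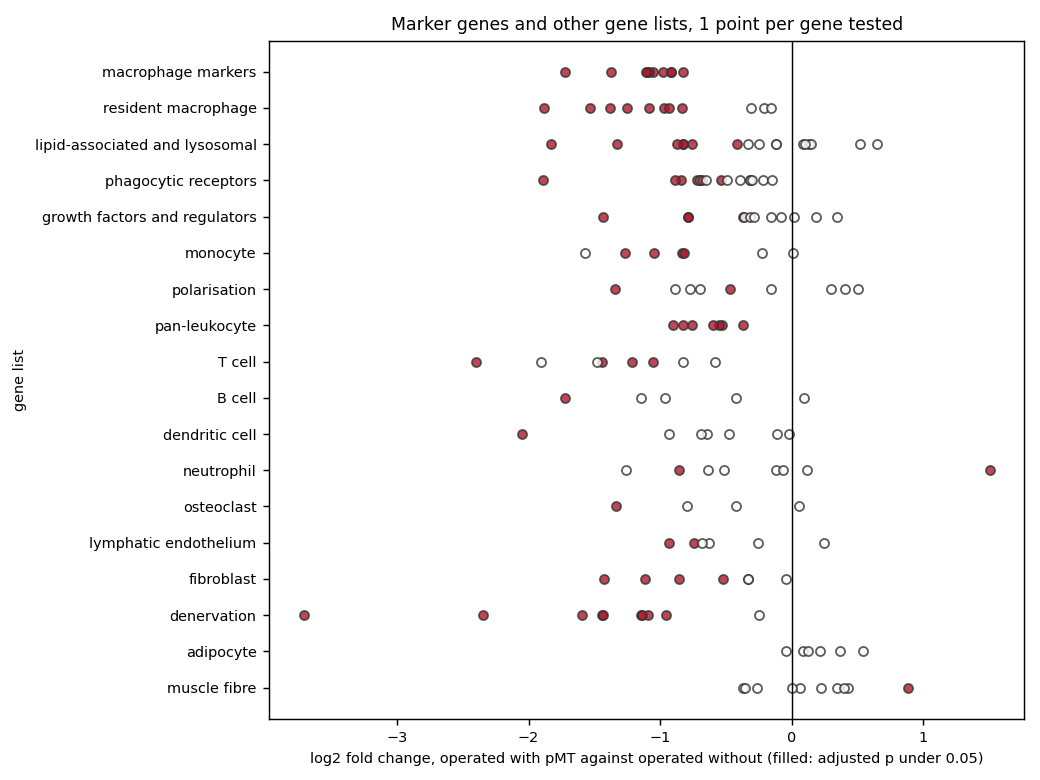
Log2 fold changes (horizontal axis) of operated libraries with pMT against operated libraries without pMT for the genes of 18 lists (rows), with 1 point per gene tested and filled points for adjusted p under 0.05. The 10 macrophage markers are all filled and below 0, and the adipocyte list has no filled point.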

How the data were processed

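Gene-level data of 15 libraries of rat multifidus were analysed. Per the labels and the study's methods, the authors trimmed paired-end reads with Trimmomatic 0.38, aligned them to rn6 with HISAT2 2.1.0, sorted them with SAMtools 1.9 and quantified RefSeq genes with StringTie 2.1.3b. They deposited read counts without normalization, TPM values and FPKM values for each library. Strand and multi-mapping settings are not given in the sources used here. Counts were used for all tests, the deposited TPM for comparing genes and for relative gene length (mean count over mean TPM), and the deposited FPKM were not used. No column of an unknown sample was present. The 10 members and the other lists were chosen with earlier results of these data known, and so were the comparisons. Library totals, 52342134 to 73557878 with a median of 64352162, limit the precision of low genes, and intervals cover counting and library spread only.

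Analyses used R 4.3.3, edgeR 4.0.16, limma 3.58.1 and DESeq2 1.42.0. Genes passing filterByExpr were fitted in edgeR with TMM factors and glmQLFit (robust) on 15 libraries with group as the only term, since Control and Surgery hold 2 libraries each, and tested with glmQLFTest. In the study's methods edgeR's exactTest is named, which was kept as an alternative. The paper's text describes the Control, Surgery and pMT groups. Benjamini-Hochberg adjustment covered the 17201 genes tested. The test was tested on simulated data for surgery against control (16934 genes), where it recovered 52.5% of 200 changed genes, 70% of those changed 4-fold and 35% of those changed 2-fold, with 5 false calls. All members were named, with the gene most like each by Pearson's r. Other genes came from the 3 most abundant of each list and, per comparison, up to 2 called genes of each list with the largest change in each direction and a mean log2 CPM of at least 0, not all of which are printed. Further genes are marked as chosen after their values were seen. Levels for likeness were log2 CPM with a prior count of 2. Pairing by replicate number was not seen: of 24 same-numbered pairs, 2 had deviations that correlated above 0.1. In groups of 2 libraries these values are not independent, and a shared batch was not tested. Alternatives covered scaling, filters, tools, groups in the fit, the block, the length trend (lowess, span 0.3) and left-out libraries. The list genes Cbr2, Ccr2, Ly6c, Chil3, Trac and Ocstamp were not analysed here.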

Additional observations from a re-analysis of the deposited data

Results flagged for a closer look

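Adgre1 in replicate 4 of the pMT/VitD group was 7.75 CPM, far from the 4.24 to 4.75 CPM of the other 3 libraries of the group, with a gap of 0.853 of the group's whole range, above the 95% critical value of Dixon's test for 4 libraries (0.829). This test was made for 20 sets of 4 libraries (10 members in 2 groups), of which chance would give about 1. The value stayed below the lowest level in any operated library without pMT, 13.9 CPM.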

How the results depend on the processing

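The comparison of 8 operated libraries with pMT against 5 without called all 10 members lower under every setting tried, and no member called under any setting reversed its sign in the 2440 values over 28 settings. In these values 140 calls were lost, 84 were gained and 44 signs changed, all of members not called. Other counts of members moved. With limma voom and quality weights they were 10 for Surgery against Control, 10 for VitD against Control, 10 for pMT against Surgery, 5 for pMT/VitD against Control and 6 for pMT/VitD against pMT. With only the groups compared in the fit they were 10 for Surgery against Control and 3 for VitD against Control. Without both libraries numbered 4 they were 8 for Surgery against Control, 10 for VitD against Control and 5 for pMT/VitD against pMT, and with the length trend removed as well 9, 10 and 5, and 8 for pMT against Surgery. With the 2 surgery libraries summed to 1, chosen after seeing the data, they were 0 for Surgery against Control, 0 for pMT against Surgery and 1 for pMT/VitD against Surgery. With edgeR's exactTest the count was 8 for pMT against Surgery. With the replicate block, they were 2 for Surgery against Control, 0 for pMT against Surgery, 5 for pMT/VitD against Surgery, 5 for VitD against Control and 8 for any difference. Deviations of same-numbered pairs correlated from -0.499 to 0.169, and whether the numbers mark a shared batch was not tested. Leaving out 1 library at a time gave 0 to 5 members for Surgery against Control, 0 to 8 for VitD against Control, 0 to 6 for pMT against Surgery, 1 to 10 for pMT/VitD against Surgery and 8 to 10 for any difference. Where a library left out leaves 1 in a group, that library is assumed to vary like the other groups. Counts over all genes also moved, with voom from 266 to 4938 for Surgery against Control and from 334 to 6480 for pMT against Surgery, and with DESeq2 to 1001 and 747. Scaling by library size alone shifted the median of all genes by up to 0.325 on the log2 scale. The cause of these differences was not tested.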
